A study of Homo sapiens with 4 samples.

Results

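The regions described here are stretches of accessible chromatin found at the ends of protein-coding genes in both libraries of enzalutamide-resistant LNCaP cells and in neither library of the parental LNCaP cells. Each peak summit was widened by 250 bp per side, overlapping windows of the 4 libraries were merged, and a region was kept when its strongest summit lay within 1 kb of either end of a RefSeq protein-coding gene. Of 150917 merged regions, 5793 held a summit in both resistant libraries and in no LNCaP library, and 962 of these lay near a gene end. They touched 1033 of 20037 protein-coding genes. The regions were chosen by the presence and absence of summits in these 4 libraries, so their counts and scores are given as descriptions without a test.

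LNCaP is a human prostate cancer cell line from a lymph node metastasis that depends on androgen signalling. Enzalutamide blocks that signalling. The assay was ATAC-seq, in which a transposase cuts and tags open chromatin, and a summit is a point of locally highest signal in a peak. One group held 2 libraries of LNCaP cells with the genotype WT and no treatment label (LNCaP), and the other held 2 libraries of resistance cells derived from them and treated with enzalutamide (LNCaP-resistance). Both groups grew in RPMI-1640 with fetal bovine serum per the labels. The study's methods describe adaptation of the resistant cells to charcoal-stripped serum and a stepwise rise of the drug, so that effects of the drug, of low androgen and of long selection cannot be told apart. The replicate numbers carry a batch label (repeat 1 or repeat 2), and the labels do not say that they were separate cultures. The methods speak of independent replicates for the study as a whole without naming these libraries, so the spread between them may be technical.

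The start of an active human gene is usually kept free of nucleosomes, and many starts lie in stretches rich in CpG that are open in nearly all cell types. Genes used by few tissues, such as germline genes or the HOX genes that set position along the body axis, often have closed or Polycomb-covered starts elsewhere. A summit list marks only points of high signal in peaks, not how far the open stretch around them reaches.

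The promoters below carry the findings that follow. The first 4 belong to genes with no LNCaP summit within 10 kb of the region, and they are shown because the lists placed these starts in the resistant cells alone. ZNF716 lies at chr7:57449927-57450226 on the plus strand, ZFP3 at chr17:5078217-5078516 on the plus strand, TIMP1 at chrX:47582186-47582485 on the plus strand and HOXA13 at chr7:27200042-27200341 on the minus strand. Each sequence runs 5′ to 3′ from 250 bases before to 50 bases after the gene start in RefSeq GRCh38.p14, and capitals mark the bases within 10 bp of the strongest resistant summit.
ZNF716: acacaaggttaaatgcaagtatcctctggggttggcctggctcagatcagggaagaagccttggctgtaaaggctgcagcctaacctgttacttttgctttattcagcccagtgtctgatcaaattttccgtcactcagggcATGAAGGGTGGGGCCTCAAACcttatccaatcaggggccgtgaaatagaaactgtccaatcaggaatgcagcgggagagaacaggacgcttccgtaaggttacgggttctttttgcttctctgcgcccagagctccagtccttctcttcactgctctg
ZFP3: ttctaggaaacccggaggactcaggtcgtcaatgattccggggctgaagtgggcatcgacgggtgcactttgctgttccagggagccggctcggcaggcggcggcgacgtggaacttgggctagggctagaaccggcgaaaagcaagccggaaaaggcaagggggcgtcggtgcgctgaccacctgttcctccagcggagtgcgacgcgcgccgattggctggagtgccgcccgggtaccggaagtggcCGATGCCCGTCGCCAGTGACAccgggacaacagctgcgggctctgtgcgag
TIMP1: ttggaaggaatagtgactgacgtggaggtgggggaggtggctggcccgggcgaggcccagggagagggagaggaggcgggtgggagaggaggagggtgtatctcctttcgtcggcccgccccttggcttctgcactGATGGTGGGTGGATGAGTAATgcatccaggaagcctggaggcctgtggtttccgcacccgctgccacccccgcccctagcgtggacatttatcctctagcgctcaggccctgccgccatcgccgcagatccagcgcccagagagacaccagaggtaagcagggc
HOXA13: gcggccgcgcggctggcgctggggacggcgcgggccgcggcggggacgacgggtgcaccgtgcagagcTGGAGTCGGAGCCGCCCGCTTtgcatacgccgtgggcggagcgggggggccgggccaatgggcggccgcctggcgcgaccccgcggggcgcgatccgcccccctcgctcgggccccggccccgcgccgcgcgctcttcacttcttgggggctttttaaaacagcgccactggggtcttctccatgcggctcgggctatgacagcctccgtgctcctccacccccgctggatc

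The next 4 are shown because the nearest LNCaP summit lay only 585 to 1292 bp away from the resistant one. CYB5A lies at chr18:74291914-74292213 on the minus strand, WDR53 at chr3:196568505-196568804 on the minus strand, PTCD3 at chr2:86105985-86106284 on the plus strand and MOV10L1 at chr22:50089756-50090055 on the plus strand.
CYB5A: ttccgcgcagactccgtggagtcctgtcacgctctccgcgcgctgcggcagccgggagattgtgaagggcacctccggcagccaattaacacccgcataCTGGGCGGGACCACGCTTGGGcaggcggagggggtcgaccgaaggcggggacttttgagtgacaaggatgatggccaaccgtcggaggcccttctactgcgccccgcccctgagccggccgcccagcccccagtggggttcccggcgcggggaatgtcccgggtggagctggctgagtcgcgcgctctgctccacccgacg
WDR53: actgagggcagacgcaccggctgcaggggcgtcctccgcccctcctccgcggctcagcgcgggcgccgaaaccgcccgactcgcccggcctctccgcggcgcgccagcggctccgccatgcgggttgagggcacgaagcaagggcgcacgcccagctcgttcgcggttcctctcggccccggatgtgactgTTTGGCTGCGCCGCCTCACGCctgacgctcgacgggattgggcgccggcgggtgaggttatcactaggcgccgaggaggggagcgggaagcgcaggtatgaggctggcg
PTCD3: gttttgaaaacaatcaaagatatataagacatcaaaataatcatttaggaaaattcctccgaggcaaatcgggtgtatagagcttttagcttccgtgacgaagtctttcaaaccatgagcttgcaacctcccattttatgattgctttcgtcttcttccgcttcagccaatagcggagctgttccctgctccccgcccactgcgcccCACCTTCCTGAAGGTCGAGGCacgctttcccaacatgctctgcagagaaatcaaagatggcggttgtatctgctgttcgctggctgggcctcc
MOV10L1: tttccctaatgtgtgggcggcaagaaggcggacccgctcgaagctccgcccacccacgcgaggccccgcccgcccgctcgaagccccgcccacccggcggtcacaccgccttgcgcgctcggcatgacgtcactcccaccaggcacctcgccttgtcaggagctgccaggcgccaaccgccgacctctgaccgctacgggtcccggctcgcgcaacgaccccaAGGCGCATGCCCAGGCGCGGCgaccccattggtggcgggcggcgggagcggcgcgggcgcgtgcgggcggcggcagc

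The 4 lists differed in length before any rule was applied. LNCaP replicates 1 and 2 held 117245 and 107344 summits, and LNCaP-resistance replicates 1 and 2 held 70866 and 45618. The files gave no read counts, so the depth was unknown. The share of a library's summits within 1 kb of a protein-coding gene end was 13.0% and 14.4% in LNCaP and 21.2% and 27.9% in LNCaP-resistance. The groups did not overlap, and the mean was higher by 10.9 percentage points in LNCaP-resistance, against a pooled SD of 3.42 (n = 2 libraries per group). A two-sided exact permutation test gave p = 0.333, the smallest value that 2 libraries against 2 can give. Within batches the difference was 8.26 points for replicate 1 and 13.5 points for replicate 2. The shorter resistant lists moved with this difference, and it was 6.30 points when each library kept the same number of highest-scoring summits. The part of depth in it was not tested.

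The identity of the cells was read from summits at marker genes. KLK2, FOLH1, TMPRSS2, HOXB13 and FOXA1, which mark luminal prostate cells, had a summit near an end in all 4 libraries, whereas KLK3 had none in any. Among basal markers, TP63 and KRT5 had none and KRT14 had one in the LNCaP libraries. SYP, CHGA and ENO2, which mark neuroendocrine cells, had one in all 4 libraries and INSM1 in none. Of the blood markers, PTPRC had none and CD3E had one in replicate 1 of each group.

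Of the 18610 regions near gene ends, 5.17% met the resistant-only rule, against 3.84% of all merged regions. Read the other way, 16.6% of the resistant-only regions lay near a gene end (95% Wilson interval 15.7% to 17.6%, counting error only). The same share was 3.77% of 41503 LNCaP-only regions and 32.0% of 31833 regions shared by all 4 libraries. The share of resistant-only regions thus lay between those of LNCaP-only and shared regions. Regions of the same libraries are not replicates, so the difference between these classes was not tested. The number of such regions was 1563 for LNCaP-only and 10173 for shared ones. Without LNCaP-resistance replicate 2, which also ended the need for a summit in both resistant libraries, 2208 regions met the rule. When every library kept its 45570 highest-scoring summits, which left that shortest list whole and shortened the other 3, 2407 did.

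Most of the 962 regions sat at gene starts. The strand of the nearest gene was known for 726 of them through the RefSeq promoter table, and in 625 (86.1%, interval 83.4% to 88.4%) the nearest end was the 5′ end. Shared regions reached 94.2% and LNCaP-only regions 49.6%. Of the 625, 45.6% had the strongest summit within 100 bp of the start, compared with 55.3% of shared and 18.6% of LNCaP-only regions. The median summit lay 5 bp upstream of the start, with the middle 50% of regions between 77 bp upstream and 363 bp inside the gene. Known starts on both strands lay within 1 kb of the strongest summit in 28 resistant-only regions, a count equal to 4.48% of the 625. The same ratio was 11.8% for shared regions. This count did not ask that the nearest end be a start or that the 2 genes point away from each other. Genes without a known strand could not enter it.

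**Figure D1:**
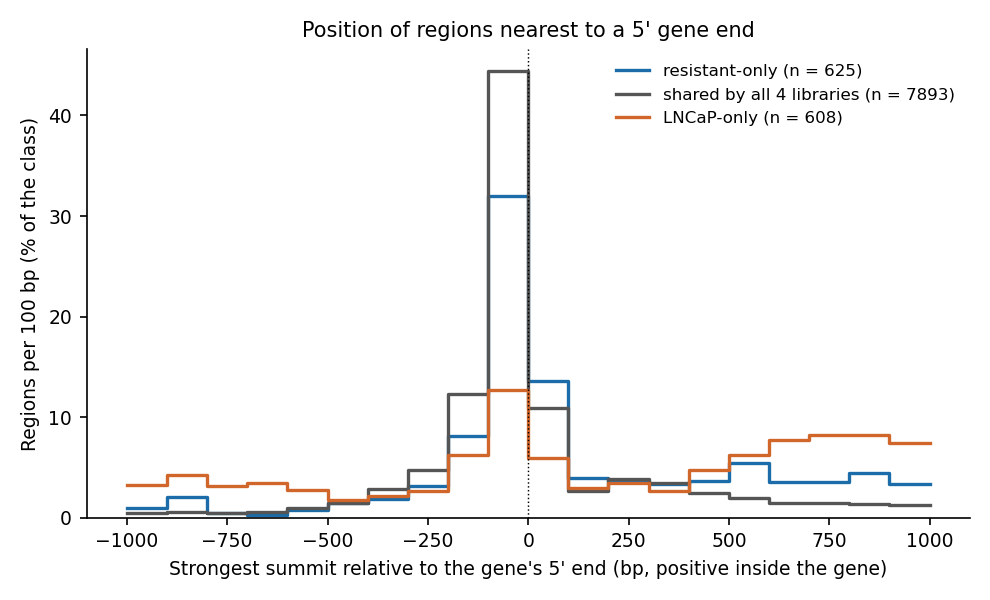
Position of the strongest summit relative to the gene's 5′ end (x axis, bp, positive inside the gene) for regions nearest to a 5′ end, as the percent of each class per 100 bp (y axis). Resistant-only regions (n = 625) peaked just upstream of the start like shared regions (n = 7893), and LNCaP-only regions (n = 608) were spread more evenly with more of them beyond 500 bp inside the gene.

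The score of a summit is the −log10 of a p- or q-value, which grows with depth, so each was ranked within its own library. A percentile of 90 means that 90% of that library's summits scored equal or lower. The median of the mean percentile over the 2 resistant libraries was 49.0 (middle 50% from 33.4 to 67.0), compared with 41.6 for resistant-only regions away from gene ends and 84.5 for shared regions near gene ends. The regions were thus middling peaks of the resistant cells, with 18 of 962 at 90 or above, 95 at 80 or above and 97 under 20.

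The regions ranked higher in replicate 1, with a median percentile of 58.9, than in replicate 2, with 41.7, and 780 of 962 followed that direction. The 2 lists held 70866 and 45618 summits. A percentile depends on how many weak summits its list holds, which limits comparison between libraries of unlike length. The part of list length in this difference was not tested. Across the 962 regions the percentiles of the 2 libraries had a Pearson r of 0.776 and a Spearman rho of 0.793. These are correlations across regions of the same 2 libraries, and regions are not independent replicates. The 2 libraries placed their summits a median of 30 bp apart, and 615 pairs were within 50 bp.

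**Figure D2:**
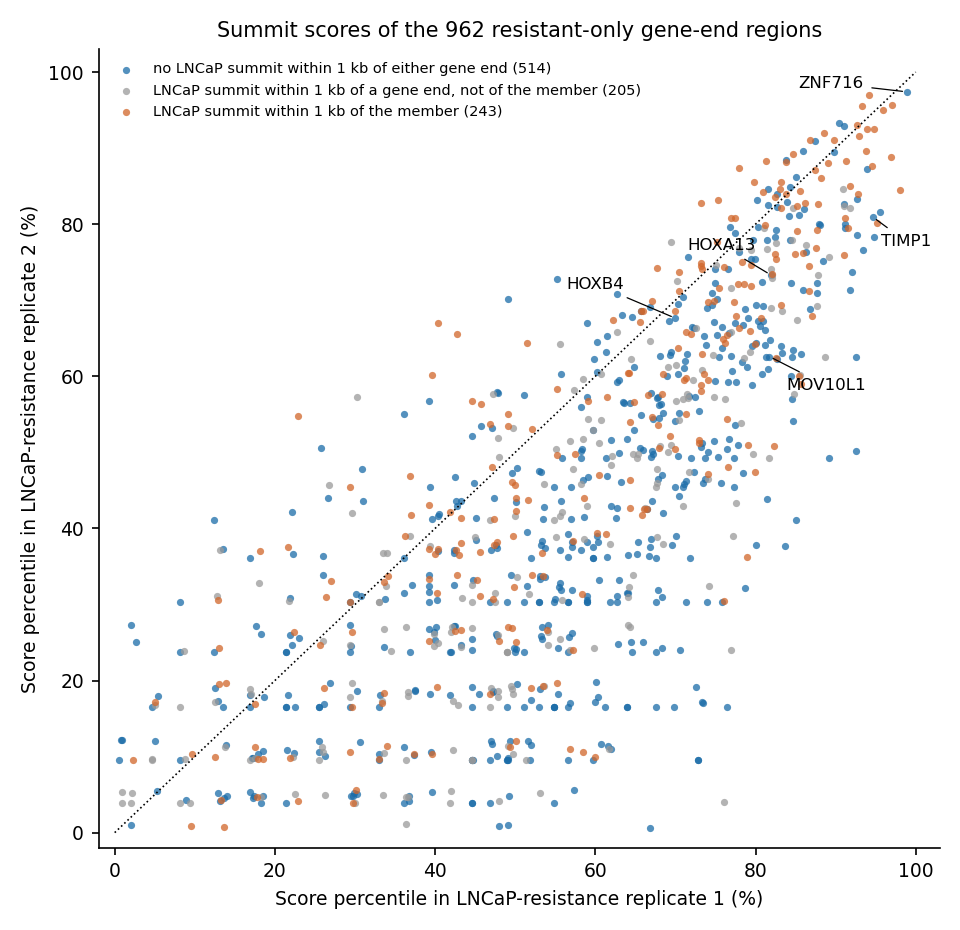
Score percentile in LNCaP-resistance replicate 1 (x axis, %) and replicate 2 (y axis, %) for the 962 regions, 1 point each, coloured by whether LNCaP had a summit nearby. Points lie below the dotted line of equal rank in 780 cases, and orange points, with a LNCaP summit within 1 kb, crowd the upper right corner, where 47 of the 95 regions with a mean of 80 or above are found.

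A region without a LNCaP summit was not always a gene end without one. In 243 of 962 regions (25.3%, interval 22.6% to 28.1%) a LNCaP summit lay outside the merged region but within 1 kb of the strongest summit, against 9.21% of the 4831 resistant-only regions away from gene ends. In a further 205 regions none lay that close, but one lay within 1 kb of an end of the gene. The remaining 514 regions (53.4%) had no LNCaP summit within 1 kb of either end of their genes, and 559 of the 1033 genes had none within 1 kb of their own ends. The nearest LNCaP summit was a median of 2694 bp away, and 180 regions had none within 10 kb.

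**Figure D3:**
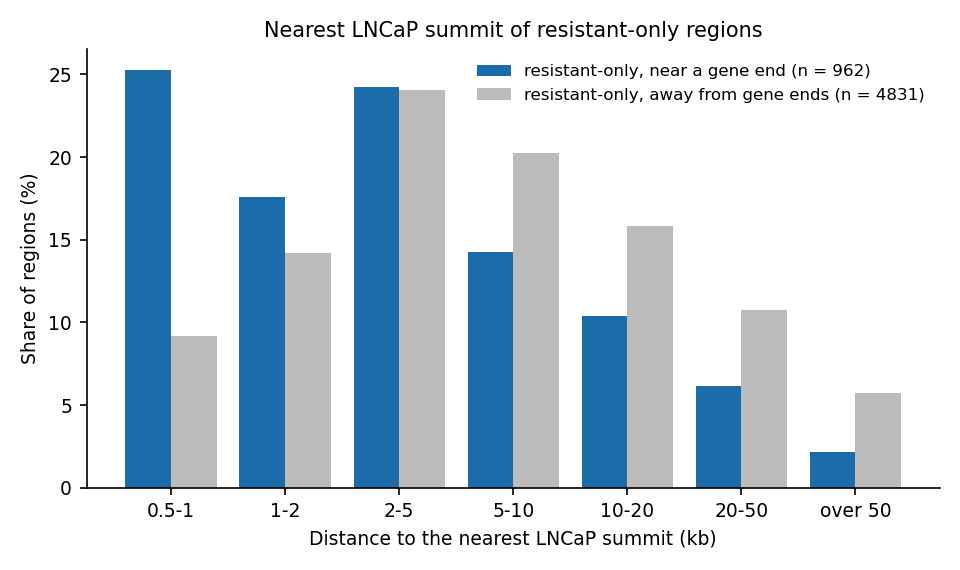
Share of resistant-only regions (y axis, %) by the distance from the strongest summit to the nearest LNCaP summit (x axis, kb), for the 962 regions near gene ends and the 4831 away from them. The gene-end regions stand higher in the bin from 0.5 to 1 kb, at 25.3% against 9.21%, and lower in every bin beyond 5 kb.

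The strongest regions had a close LNCaP summit most often. Of the regions with a mean percentile of 80 or above, 49.5% (47 of 95) had one within 1 kb, compared with 19.6% of those under 20. Of the 20 strongest regions, 15 had one. In 43 of the 47 both LNCaP libraries had it, and its own rank was high, with a median LNCaP percentile of 85.6. The resistant summit lay nearer to the gene end in 38 of the 47, at a median of 77 bp against 580 bp for LNCaP. In 40 of the 47 neither resistant library had a summit within 500 bp of the LNCaP site, and in the other 7 a single resistant library had one. The rule kept no region with a LNCaP summit within 500 bp and asked for a resistant summit within 1 kb of a gene end, so the gap of over 500 bp and up to 1 kb between the groups in this subset, and much of the nearness to gene ends, were fixed by the selection. The lists gave summits without peak widths. They did not show how far a LNCaP peak extended or whether it covered the resistant summit.

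**Figure D4:**
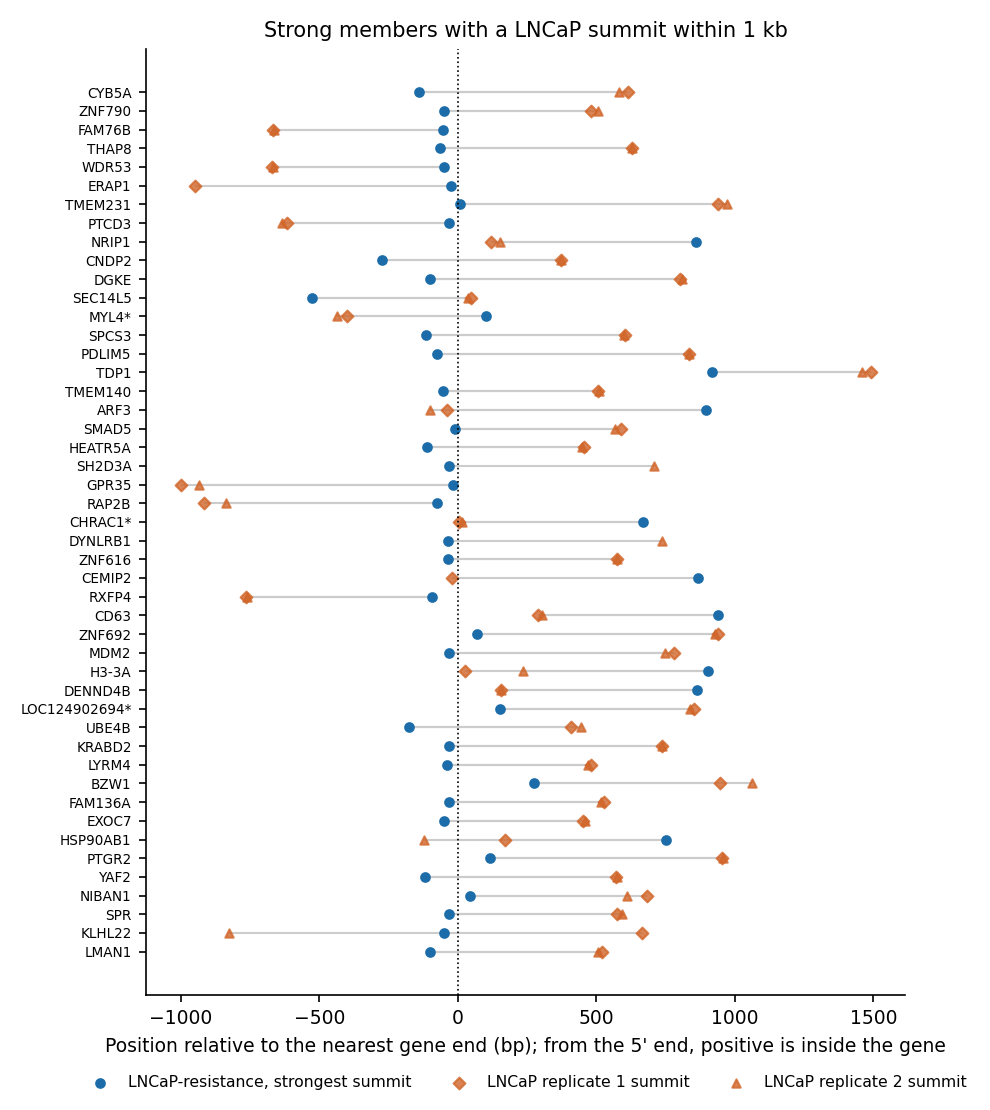
Position relative to the nearest gene end (x axis, bp; from a 5′ end positive is inside the gene, and for genes with an asterisk, whose strand was not given, positive is toward higher coordinates) of the strongest resistant summit (circles) and the LNCaP summits of replicates 1 (diamonds) and 2 (triangles), for the 47 regions with a mean percentile of 80 or above and a LNCaP summit within 1 kb. Circles gather near 0 and the LNCaP marks lie mostly 500 bp or more away, with 38 of 47 circles nearer to the end; the selection itself sets gaps of over 500 bp and keeps circles within 1 kb of an end.

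CYB5A, which encodes cytochrome b5, a cofactor that raises the lyase step of androgen synthesis, gave the second strongest region. Its resistant summits lay 141 and 146 bp upstream of the start, at percentiles of 97.0 and 95.7 in replicates 1 and 2. LNCaP had summits 615 and 580 bp inside the gene, at percentiles of 90.1 and 86.8. All 4 libraries therefore had a strong summit at this gene start, at positions that the selection required to differ. CYB5A was the only gene with a member among 14 of androgen synthesis and clearance.

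Other gene starts among the 20 strongest also had a LNCaP summit in the span from over 500 bp to 1 kb that the selection leaves. At WDR53 and FBXO45, genes that point away from each other and of which FBXO45 encodes a ubiquitin ligase subunit, the resistant summits lay 49 and 50 bp upstream of WDR53, at percentiles of 94.8 and 92.5. The LNCaP summits lay 672 and 667 bp upstream, at 93.5 and 94.2. At PTCD3, a mitochondrial ribosome protein, the resistant summits lay 34 and 33 bp upstream, at 92.6 and 93.0, and the LNCaP summits 618 and 634 bp upstream, at 91.2 and 96.7. The regions of CEP57 with FAM76B, of THAP8 with WDR62, of ZNF790 with ZNF345, of DGKE with C17orf67, and of SPCS3, PDLIM5, CNDP2, SEC14L5, TMEM231 and CDC27 with MYL4 also had a LNCaP summit within 1 kb. At TMEM231 and DGKE, 1 of the 2 resistant libraries also had a summit at the LNCaP site. The order was the reverse at NRIP1, a corepressor and coactivator of nuclear receptors, with resistant summits 858 and 860 bp inside the gene and LNCaP summits 118 and 153 bp inside it, where 1 resistant library had a summit as well. It was also the reverse at SEC14L5, with resistant summits 527 and 535 bp upstream and LNCaP summits 46 and 38 bp inside the gene. The region of ERAP1 and LNPEP, peptidases that trim peptides for antigen presentation, had a close summit in LNCaP replicate 1 only, at a percentile of 46.0.

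At a smaller set of strong regions LNCaP had no summit near the gene. ZNF716, a zinc finger gene, gave the strongest region of all, with percentiles of 98.9 and 97.4 and scores of 119 and 65.9 in replicates 1 and 2. Its summits lay 98 and 46 bp upstream of the start, and the nearest LNCaP summit was 45392 bp away. ZFP3, another zinc finger gene, had summits 6 and 9 bp inside the gene at percentiles of 90.4 and 93.3, with the nearest LNCaP summit 15889 bp away. ZNF98 had percentiles of 89.8 and 89.5 at its end and no LNCaP summit for 136064 bp.

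TENT5B, a noncanonical poly(A) polymerase, had percentiles of 93.9 and 87.2, with its summits 180 and 185 bp upstream of the start and LNCaP 2858 bp away. Of the 20 strongest regions, 5 had no LNCaP summit within 1 kb, and the same 5 remained with windows of 500 bp per side. Such windows merge summits up to 1 kb apart, so they removed the other 15 by construction.

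TIMP1, UCP2 and MEIOC were chosen after their values were seen, as known genes just under those ranks. TIMP1, a secreted inhibitor of matrix metalloproteinases on the X chromosome, had percentiles of 94.7 and 80.9 and no LNCaP summit within 21178 bp. UCP2, a carrier of the inner mitochondrial membrane, had percentiles of 87.4 and 90.9 with LNCaP 2670 bp away. MEIOC, which acts in meiosis, had percentiles of 94.8 and 78.3 and no LNCaP summit within 33650 bp.

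The HOX genes held the largest share of members among 27 gene lists. Of 39 HOX genes, 10 had a member (25.6%, interval 14.6% to 41.1%), against 5.16% of all protein-coding genes. Regions of LNCaP alone touched 4 HOX genes and shared regions 8, where 8.34% and 55.8% of all genes had such a region. Any summit near an end was found at 19 HOX genes in LNCaP and at 27 in LNCaP-resistance, while for all genes the counts were nearly equal at 13976 and 14005. The 27 include the 10 genes with a member, which the rule chose, so this count is not separate from their share.

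The HOX members were spread over the clusters, with 4 genes of HOXA, 3 of HOXB, 1 of HOXC and 2 of HOXD. HOXA13, which patterns the genital and hindgut end of the body, had percentiles of 81.9 and 73.3, with its stronger summit 172 bp upstream of the start and the nearest LNCaP summit 10235 bp away. A second region lay 659 bp inside the same gene at a mean percentile of 22.2. HOXB4 had percentiles of 70.0 and 67.7 and HOXB6 had 59.0 and 67.0, with a second HOXB6 region at a mean of 60.4. HOXA9 had percentiles of 73.0 and 51.6 with LNCaP 575 bp away, and it was the single HOX gene lost when regions with a LNCaP summit within 1 kb were left out. None of the 10 reached a mean of 80. When every library kept an equal number of summits, 16 HOX genes had a member, and 14 had one without LNCaP-resistance replicate 2. HOXB13, the prostate HOX gene, had summits in all 4 libraries and no member.

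Zinc finger genes were not frequent, but they ranked high. Of 557 genes with C2H2 zinc finger symbols, many of which encode KRAB-domain repressors, 26 had a member (4.67%), close to the 5.16% of all genes. Their median mean percentile was 76.4, compared with 49.9 for all genes with a member, and 10 of the 26 (38.5%) reached 80 against 10.7%. The nearest LNCaP summit was more than 10 kb away for 14 of the 26 (53.8%), compared with 18.0% of all 1033 genes. For 17 of the 26 (65.4%) the member lay within 100 bp of the start, against 28.1% of all 1033 genes. These shares also count genes of unknown strand or with a member only at the 3′ end. With a member within 1 kb of a known start, the counts were 17 of 23 zinc finger genes and 290 of 656 genes. Of the 26 genes, 11 were on chromosome 19, where zinc finger genes stand in clusters and share sequence, and reads from near-identical copies could be placed at the wrong one.

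The strongest members of the list were at ZNF716, ZNF790, ZNF345 and ZFP3, and the mean percentiles ran from 98.1 down to 22.6, so the list also held weak members. Without the regions that had a LNCaP summit within 1 kb, 19 zinc finger genes had a member, and 54 did when every library kept an equal number of summits.

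Other developmental and neuronal lists also stood above the 5.16% of all genes, each resting on few genes. Protocadherins, adhesion molecules of neurons, had 8 of 66 (12.1%, interval 6.27% to 22.1%). PCDH17 led them at percentiles of 85.9 and 71.3 with its summit 65 bp upstream of the start, followed by PCDHA4 at 69.3 and 52.1, PCDHGC4 at 71.7 and 47.4 and PCDHGA6 at 57.2 and 47.8. Subunits of potassium, sodium and calcium channels had 14 of 136 (10.3%, interval 6.23% to 16.5%). KCNK12, a potassium channel of the background (leak) family, led them at 86.2 and 76.4 with no LNCaP summit within 125628 bp. It alone of the 14 reached a mean of 80. The 14 genes rested on 13 regions. Their median mean percentile was 35.7, against 49.9 for all genes with a member. Of the 7 with a member within 1 kb of a known start, none had it within 100 bp, against 290 of 656 genes. Transcription factors of the SOX, FOX, PAX, GATA and T-box families had 10 of 100 by symbol (interval 5.52% to 17.4%), resting on 9 regions. They were led by FOXC2 at 71.4 and 63.0 and FOXM1 at 71.3 and 55.1. FOXM1, which drives genes of mitosis, had a LNCaP summit 508 bp away. The 10 include FOXL2NB, a neighbour of FOXL2 that shares its region and is not itself a forkhead gene. Even with it counted, the low end of the interval lay close to the 5.16% of all genes.

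Among 25 germline genes that are often silenced by promoter methylation, 3 had a member (12.0%, interval 4.17% to 30.0%), all within 100 bp of the start. The 5.16% of all genes lay inside this interval. MOV10L1, a helicase of the piRNA pathway, had percentiles of 81.7 and 62.6 with LNCaP 1292 bp away. TDRD5 had 65.7 and 55.0, and SOHLH2, a germ cell transcription factor, had 67.6 and 23.8 with LNCaP 50663 bp away. LNCaP-only regions touched none of the 25 genes, where 8.34% of all genes had such a region. Any summit near an end was found at only 7 of the 25 in LNCaP and at 10 in LNCaP-resistance. Over all genes the shares were 69.8% and 69.9%. With so few genes, the absence of LNCaP-only regions was not read as a difference.

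Beside the 5.16% of all genes, none of 18 luminal prostate genes had a member (interval up to 17.6%), and shared regions touched 14 of them. Of 21 neuroendocrine and stem cell genes, 2 had a member (9.52%, interval 2.65% to 28.9%). PEG10, a retrotransposon-derived gene, had percentiles of 72.9 and 51.3, and FOXA2, a pioneer factor, had 58.5 and 10.6. Both had a LNCaP summit within 1 kb, at 784 and 612 bp, and 14 of the 21 genes had a region shared by all 4 libraries.

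The remaining lists had intervals that held the background or lay under it, and those of the germline, luminal and neuroendocrine lists held it too. Solute carriers had 22 of 398 (5.53%), led by SLC26A5 at a mean percentile of 77.7, and replication-dependent histone genes 4 of 74, led by H1-4 at 71.5 and 57.6. Cytochrome P450 genes had 3 of 56, among them CYP1B1, which oxidises oestrogens and aromatic pollutants, at 80.3 and 79.6 with LNCaP 19923 bp away. Cytokine genes had 4 of 126, led by IFNLR1, the receptor of lambda interferons, at 87.6 and 69.2. Olfactory receptors had 6 of 390 (1.54%), keratins and keratin-associated proteins 2 of 149 (1.34%), cytosolic ribosomal proteins 2 of 97 and serpins 0 of 34. Tripartite motif genes had 6 of 77 (7.79%), orphan and adhesion receptors 6 of 106, Rab GTPases 3 of 63, collagens 2 of 44, ABC transporters 2 of 46 and tRNA synthetases 1 of 34. Cancer-testis antigens of the X chromosome had 2 of 88, recently duplicated families 4 of 202, mitochondrial ribosomal and complex I proteins 2 of 123, and genes with a number for a name 57 of 1435.

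**Figure D5:**
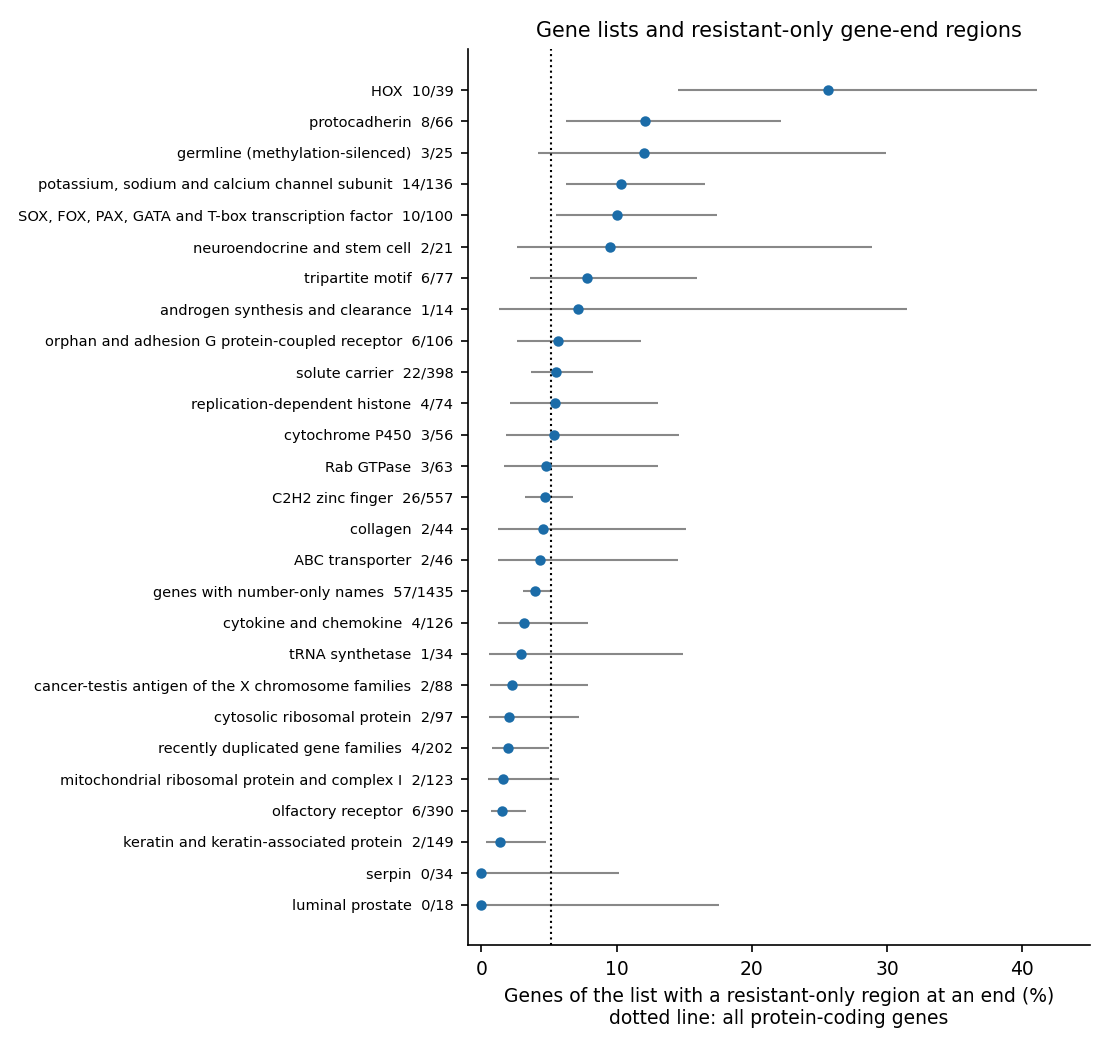
Share of the genes of each of 27 lists that had a resistant-only region within 1 kb of an end (x axis, %; points, with 95% Wilson intervals that cover counting error only), with the count of genes beside each name. The dotted line marks all protein-coding genes at 5.16%; HOX genes stand farthest above it at 25.6% and zinc finger genes lie on it at 4.67%.

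Some genes drew more than 1 member. LBX2, a homeobox gene of muscle precursors, had 3, at mean percentiles of 68.2, 65.7 and 40.4, and 25 genes had 2. Several of these also encode developmental regulators or signals, such as POU3F3, BARX1, PITX3 and WNT6 (homeobox factors and a WNT ligand), EDN1 (endothelin) and ADM (adrenomedullin, which shares both regions with SBF2). The stronger PITX3 region, at 72.3, lay near its 3′ end and 59 bp upstream of the GBF1 start. These names were picked from a list that also held NCMAP, NLRP3, SLC45A4 and ZCCHC14. The share of such genes was not compared with that over all genes. CDH2, N-cadherin, had a region at its start at a mean of 48.6 and a second 839 bp inside the gene at 9.02, with no LNCaP summit within 12313 bp. ACTB had 2 weak regions, at 29.8 and 25.4, with LNCaP beyond 1 kb of each, although LNCaP had a summit within 1 kb of an end of that gene.

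Neighbouring genes with members formed 19 runs of at least 3 consecutive genes. The run of WNT6, WNT10A and CDK5R2 on chromosome 2 (218859805 to 218962155) held 3 regions at means from 17.5 to 49.7, and that of UBE2E3, ITGA4 and CERKL (180980360 to 181657105) held 3 from 39.5 to 72.8. In 15 of the 19 runs there were fewer regions than genes, as neighbours shared them, and 94 of the 962 regions lay within 1 kb of the ends of at least 2 genes. Across chromosomes, the X chromosome had the highest share of gene-end regions that were members, 43 of 575 (7.48%, interval 5.60% to 9.92%). The share over all gene-end regions was 5.17%. Chromosomes 12 and 4 followed at 6.31% and 6.28%, with intervals that overlapped that of X, which is named only as the highest of all.

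The limit of 1 kb cut through a gradual spread of distances. LOC101929773, NRG1 and MAGEL2 stood just inside at 990 bp, at mean percentiles of 32.8, 27.0 and 25.6, and TGFB3, COL12A1 and WNT7B just outside at 1001, 1005 and 1006 bp, at 84.9, 70.8 and 42.2. The lowest members, at C3orf22, RAB43 with ISY1-RAB43 and ANKRD53 with TEX261, had means of 1.51, 2.37 and 2.93.

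The promoter sequences of the members were slightly richer in G and C than those of all genes. The RefSeq table gave a 300-base promoter whose start lay within 1 kb of the strongest summit for 589 genes. Their median GC content was 67.0%, compared with 62.7% over all 15842 promoters and 65.7% over 8426 promoters at shared regions, and their median number of CpG was 25 compared with 22 and 27. Promoters with fewer than 10 CpG made up 12.4% of the members, 27.0% of all and 5.40% of shared ones. The ZNF716 promoter printed above was CpG-poor, with 7, and that of HOXA13 CpG-rich, with 44.

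Short motifs were counted on both strands as descriptions of the letters. The ETS site CCGGAAG stood in 8.998% of the 589 promoters (53), against 14.2% of all and 21.9% of shared promoters, with 7.69% of the 403 with no LNCaP summit within 1 kb and 12.3% of the 187 with one. The GC box GGGCGG stood in 71.8%, against 58.5% and 73.8%. The MYC E-box CACGTG stood in 12.4%, against 8.88% and 10.6%, with 9.68% of those 403 and 18.2% of those 187. The CCAAT box CCAAT stood in 30.7%, against 36.4% and 38.9%. The forkhead site TGTTTAC stood in 2.55%, against 2.61% and 2.30%. The TATA box TATAAA stood in 9.17%, against 9.63% and 4.83%, the NFI hexamer TTGGCA in 8.32%, against 10.8% and 8.85%, and the AP-1 site TGANTCA in 5.43%, against 5.75% and 3.69%. The cAMP response element TGACGTCA stood in 2.55%, against 2.59% and 3.58%, and the NRF1 core GCATGCGC in 3.06%, against 4.26% and 6.11%. Motifs rich in C and G follow base composition, and the shares were not adjusted for it.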

How the data were processed

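ATAC-seq was done on 2 LNCaP and 2 LNCaP-resistance libraries. The authors deposited 1 summit list per library, with a score that is the −log10 of a p- or q-value (which of these is not given in the sources used here). The submitters' processing notes name the build hg38 and the tools Bowtie2 2.2.5, SAMtools 1.6, MACS2 2.2.6, deepTools 3.5.2 and HOMER 4.11; options and read depths were not given in the sources used here. Groups came from the sample titles. Summits on the main chromosomes were widened by 250 bp per side and merged, scores were ranked within a library, and distances were taken to the ends of 20037 protein-coding genes of RefSeq GRCh38.p14. The promoter table gave the strand of 15842 of them; ends of the other 4195 were not called 5′ or 3′. Sequences are RefSeq's reference. The members, gene lists, motifs and named genes (the 20 strongest, up to 4 per list, genes with several members, runs, and members at the limit) were chosen with earlier results of these data known. The 12 motifs and 27 lists were described without set tests. A per-library share was compared by exact permutation. Code was tested on simulated data. Python 3.11.15, numpy 2.4.6, pandas 2.3.3 and scipy 1.17.1 were used. Alternatives changed the window, the score minimum, the list length, the gene distance, the number of libraries required and the libraries included. Some genes and motifs are not reported here.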

Additional observations from a re-analysis of the deposited data

How the results depend on the processing

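Depth was unknown, and the counts moved with the number of summits kept. The 962 regions became 2407 with an equal number of summits per library, 2351 with a summit in at least 1 resistant library, 1451 at 3 kb, and 2927 and 1811 within replicate numbers 1 and 2, with 2527, 2393, 1631, 2994 and 1912 genes. In the same order except for 3 kb, zinc finger genes numbered 54, 49, 60 and 41, and HOX genes 16, 16 and 17 for equal lists and replicate numbers 1 and 2 (main counts 26 and 10). Leaving out 1 library gave 1234 to 2208 regions, 1317 to 2260 genes, 29 to 47 zinc finger and 11 to 14 HOX genes, the highest each time without LNCaP-resistance replicate 2. Of the 20 strongest regions, 5 remained with windows of 500 bp and 5 with no LNCaP summit within 1 kb. Both settings remove regions with a LNCaP summit within 1 kb by construction. All 20 remained in each leave-one-out, which was largely set by the rule as well. Leaving out a library loosens the rule on presence and absence of summits. So do the settings with 1 resistant library or 1 replicate number, and higher counts there are built into them.

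The 16.6% near gene ends became 20.2% and 13.7% with windows of 100 and 500 bp, 24.9% at a score of at least 10, 21.0% with equal lists, 12.1% with 1 resistant library, 11.8% and 25.05% at 500 bp and 3 kb, 14.1% with no LNCaP summit within 1 kb, 13.8% within replicate number 1 and 12.3% to 19.0% leaving out 1 library. The 25.3% with a close LNCaP summit became 53.4% and, by construction, 0% with windows of 100 and 500 bp, 19.7% at a score of at least 10, 12.2% with equal lists, 33.8% with 1 resistant library, 21.0% and 22.5% at 500 bp and 3 kb, 37.5% and 33.4% within replicate numbers 1 and 2, and 25.9% to 33.9% leaving out 1 library. The 86.1% at 5′ ends became 89.3% and 82.5% with windows of 100 and 500 bp, 91.2% at a score of at least 10, 89.2% with equal lists, 80.3% with 1 resistant library, 91.6% and 76.5% at 500 bp and 3 kb, 82.8% with no LNCaP summit within 1 kb (as a rule or, added after seeing the data, over the members alone), 82.2% within replicate number 1 and 80.6% to 87.8% leaving out 1 library. The median percentile of 49.0 became 34.0 with 1 resistant library and 38.3 to 53.9 leaving out 1 library. The 0% was set by construction, and the gene distance set the direction of the 11.8% and 25.05%. Settings with fewer libraries or with 1 resistant library loosened the rule on summits. The cause of the other shifts was not tested.

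The alternatives for HOX genes and for the per-library share were added after seeing the data. The difference of 10.9 points in the share of summits near gene ends became 15.97 at a score of at least 10 and 6.30 with equal lists, and 7.54 to 14.2 leaving out 1 library. With the replicate block, exchanging libraries only within replicate numbers, it was 10.9 points with an exact permutation p of 0.5, the smallest that 2 pairs allow. These 2 pairs are too few to check whether same-numbered libraries deviate together.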
